A study of Mus musculus with 3 samples.

Results

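The cells described here were droplet-captured cells of the embryonic mouse small intestine in which Dlk1 and Lsp1 transcripts were found together and the transcripts of pacemaker, muscle, nerve and epithelial cells were scarce. They were chosen on their own counts of unique molecular identifiers (UMIs, the tags that mark each captured transcript). A member had 3 or more UMIs of Dlk1 and 2 or more of Lsp1, no UMI of Kit, under 0.2% of its UMIs in Actg2, fewer than 5 UMIs of Stmn2 and at most 2 of Epcam. The rule found 1863 of 8447 cells in the library of stage E15.5, named for the embryonic day, and 1535 of 11598 cells in that of stage E17.5. That is 3398 of 20045 embryonic cells, in a series of 28436 cells. The same rule applied to the library of postnatal day 7 (P7) found 25 of 8391 cells, which are not described further. All animals were wild type and untreated, no transgene or other allele is labelled, and each stage is 1 Chromium 3′ v2 library of whole small intestine. Cells had been sorted by the submitters as viable and either positive for Epcam or negative for Epcam, CD31 and CD45, a gate set against vessel cells and leukocytes. The series was made to study how the gut elongates. The sources used here do not give strain, sex or how many animals went into a library.

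The wall of the gut is built from a mesenchyme that lies around the epithelial tube. Smooth muscle forms within it as an inner circular and an outer longitudinal layer, with interstitial cells of Cajal, the Kit-dependent pacemakers, beside them, and a thin fibrous subserosa lies between the muscle and the mesothelium that covers the organ. Dlk1 encodes a transmembrane protein with epidermal growth factor repeats, is expressed from the paternal allele, and is known from embryonic mesenchyme and fat cell precursors. Lsp1 encodes an actin-binding protein first described in leukocytes, and Meis2 a homeodomain transcription factor of the TALE class. In the GRCm38 genome the genes lie on chromosome 12 from 109452823 to 109463336 (Dlk1), chromosome 7 from 142460809 to 142494867 (Lsp1) and chromosome 2 from 115863064 to 116065839 (Meis2). The files give no position of a cell in the wall and no descent, so neither an outer location nor a later fate of these cells was measured.

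The members held a median of 8150 UMIs at E15.5 and 6113 at E17.5. Levels are in CPM: for each gene, UMIs were summed over a set of cells and scaled to 1e6 UMIs of that set. Each stage is a single library, so differences could not be tested and no p-value is given. Intervals in brackets are exact 95% Poisson intervals for a level, Clopper-Pearson intervals for a share and conditional binomial intervals for a log2 ratio. They cover counting error only, not the spread between animals, dissections or sorts. Haemoglobin genes took up 0.754% of the members' UMIs at E15.5 and 1.71% at E17.5. The 3 files of barcode names are identical, with 8447 names each, although the libraries hold 8447, 11598 and 8391 cells. Barcodes shared between libraries therefore could not be counted. Markers of nerve, glia, vessel, immune and epithelial cells were low in the members. Summed over each list, the 9 enteric neuron genes were at 42.5 and 49.3 CPM, the 8 glial genes at 127 and 133, the 7 endothelial genes at 18.1 and 17.6 and the 9 epithelial genes at 49.2 and 78.5, against 7928 and 15175 in epithelial cells.

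For comparison, 3 other sets were drawn from the same libraries by counts, each with fewer than 5 Stmn2 and at most 2 Epcam UMIs. Muscle-type cells had no Kit and 0.2% or more of their UMIs in Actg2, the enteric smooth muscle actin (899 cells at E15.5, 1280 at E17.5). Kit-positive cells had 2 or more UMIs of Kit and 1 or more of Etv1 (297 and 303 cells). Fibroblast-type cells had no Kit, Actg2 under 0.2%, 5 or more UMIs of Col3a1, fewer than 3 of Dlk1 and none of Lsp1 (432 and 1081 cells). Because all sets were cut on counts, the contrasts between them are descriptions. The gene lists were chosen with earlier results of these data known, so counts over a list are descriptions too.

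The label of an outer mesenchyme with Meis2 was checked first. Meis2 was at 620.3 (608 to 632) CPM in the members at E15.5 and 413 (400.5 to 425) at E17.5. It was above the fibroblast-type cells, at 159 and 129 CPM, and above the muscle-type cells, at 463 and 209.8, but below the Kit-positive cells, at 1006 and 565. The mesothelial list was mixed. Its defining markers were near 0 in the members: Upk3b (uroplakin 3b) stood at 0.717 and 1.45 CPM, Msln (mesothelin) at 0.0598 and 0.483, and Wt1 at 1.02 and 2.32. The sum over all 16 genes, which other cells share in part, was 329.6 and 263 CPM, above the 283 and 157 CPM of the next mesenchymal set at each stage. Igfbp5, a binding protein of insulin-like growth factors on that list, was at 231 and 182 CPM against 5.75 and 69.0 in fibroblast-type cells. Of the genes measured against fibroblast-type cells, 3 of 6 at E15.5 and 2 of 4 at E17.5 were more than 1.5-fold higher in the members and 1 and 0 lower, where 12.2% and 9.02% of all genes compared were higher and 5.67% and 6.65% lower. Markers of mature adventitial fibroblasts were low as well, with Pi16 at 0.120 and 0.483 CPM and Cd34 at 9.26 and 28.5. Genes of subepithelial fibroblasts, the cells under the epithelium, were mostly lower than in fibroblast-type cells. Foxl1 was at 9.68 and 3.09 CPM against 60.1 and 26.8, and Nrg1 (neuregulin 1) at 17.7 and 4.74 against 186 and 67.2. Of 12 measured genes of that list, 10 at E15.5 and 8 at E17.5 were more than 1.5-fold lower in the members, where 5.67% and 6.65% of all genes compared were lower by that much.

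**Figure D1:**
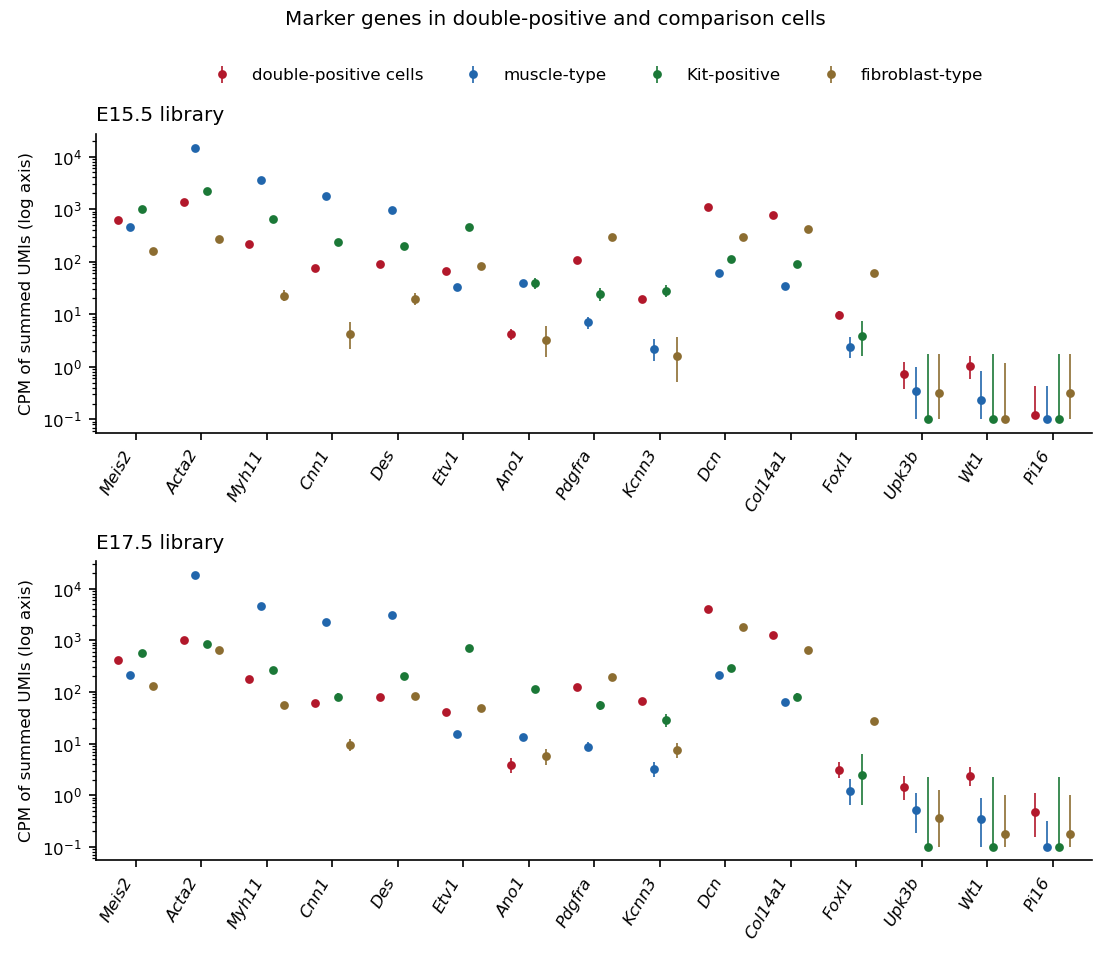
Levels of marker genes in CPM (vertical axis, log scale) in the Dlk1 and Lsp1 double-positive cells and 3 comparison sets, E15.5 above and E17.5 below; points are summed levels, bars 95% Poisson intervals, and values under 0.1 CPM are drawn at 0.1. The double-positive cells lie below the muscle-type cells in Acta2, Myh11, Cnn1 and Des and above the other 3 sets in Dcn and Col14a1, while Upk3b, Wt1 and Pi16 are near the bottom in all sets.

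By these markers the members were not 1 known cell type: summed over all members, fibroblast genes were high, muscle genes low but present, and no marker told an outer position. Groups 0 and 1 of the members, described below, had Adamdec1 and Bmp4, a gene of the subepithelial list, among their first genes. They made up 1097 of 1802 clustered members at E15.5 and 849 of 1420 at E17.5. The label of an outer mesenchyme was therefore not borne out, and the members are called by their rule below. After each cell had been thinned to 5000 UMIs, so that depth did not differ, Dcn (decorin, a matrix proteoglycan) was found in 80.0% of the members at E15.5 and 94.4% at E17.5, against 15.0% and 23.3% of muscle-type cells and 4.88% and 10.9% of epithelial cells (5 or more Epcam UMIs). Epithelial cells should lack the gene, so their share is a guide to free RNA. They held more UMIs before thinning, at medians of 21366 and 16526 against 8150 and 6113 in the members. Their thinned share can therefore understate the free RNA in the members. Myh11 (smooth muscle myosin heavy chain) was found in 27.9% and 24.3% of the members, against 99.8% and 99.9% of muscle-type cells and 4.59% and 5.60% of epithelial cells. Unthinned, the shares of members were 80.7% and 91.7% for Dcn and 37.5% and 28.8% for Myh11. Those of epithelial cells were 10.3% and 17.9% for Dcn and 12.0% and 11.6% for Myh11. Thinning left out 190 members at E15.5 and 423 at E17.5 that held fewer UMIs. It left out 48 and 146 muscle-type and 18 and 30 epithelial cells.

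The genes of the rule show how sharply it cut. Dlk1 was at 784 (771 to 798) CPM in the members at E15.5 and 979.5 (961 to 999) at E17.5, and Lsp1 at 798 (785 to 812) and 902 (883 to 920.1). Kit-positive cells, which no Dlk1 threshold had chosen, held nearly as much Dlk1 at E15.5, at 693 CPM, and less at E17.5, at 386. Their Lsp1, at 983 and 778 CPM, was above the members' level at E15.5 and below it at E17.5, so they held both defining genes. Muscle-type cells had 168 and 119 CPM of Dlk1 and 439 and 332 of Lsp1. The Dlk1 threshold kept 3129 cells of the E15.5 library and 2478 of the later one, the Lsp1 threshold then left 2602 and 1915, and the absence of Kit left 2084 and 1745. Cells just inside the rule, with exactly 3 Dlk1 or 2 Lsp1 UMIs, were 499 and 497. Cells just outside, with 1 UMI less of either gene and the rest of the rule met, were 566 and 578. Col3a1 and Meis2 differed by less than 1.5-fold between them. Col3a1 stood at 3304 CPM just inside and 2881 just outside at E15.5, and at 5473 and 5756 at E17.5. Meis2 stood at 472 and 385 CPM at E15.5 and at 373 and 331 at E17.5. Cxcl13 stood at 382 and 257 CPM at E15.5 and at 997 and 1132 at E17.5, in the opposite order. Members well inside the rule, 1364 and 1038 cells, had more Cnn1 than those at its edge, at 90.9 against 27.7 CPM at E15.5 and 71.2 against 32.7 at E17.5.

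The thresholds count UMIs, so they reach further into a deep library. Every cell of 5000 or more UMIs was thinned to 5000, and cells then holding at most 2 Epcam UMIs were kept. The rule was met by 16.8% (15.9 to 17.8%) of 6091 such cells at E15.5 and 13.3% (12.4 to 14.1%) of 6254 at E17.5. Thinned to 7000 UMIs, the shares were 21.7% (20.5 to 23.0%) of 4222 cells and 13.7% (12.5 to 14.9%) of 3374. The sort and the dissection can set such shares, and they are not read as a change in the tissue.

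The leading genes of the members were the 20 with the largest smallest ratio to the 3 comparison sets in both libraries. Most encode secreted or matrix proteins. First stood Ogn (osteoglycin, a small proteoglycan of collagen fibrils), at 329 (320.0 to 337) CPM at E15.5 and 698 (682 to 714) at E17.5. No comparison set exceeded 57.8 CPM of Ogn at E15.5 or 135 at E17.5. Cxcl13, a chemokine that draws B cells and lymphoid tissue inducer cells, followed at 329.9 (321 to 339) and 1063 (1043 to 1083) CPM, against at most 40.6 and 252. Lox (lysyl oxidase, which cross-links collagen and elastin) was at 130.4 and 321 CPM, Aspn (asporin, a relative of decorin) at 143 and 450.3, and Fbln5 (fibulin 5, needed for elastic fibres) at 62.8 and 129. Each of these lay above all 3 comparison sets in both libraries.

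Collagen genes belonged to the same list. Col1a1 was at 1620.3 and 3817 CPM against 716 and 1723 in fibroblast-type cells. Col3a1 was at 3169.7 and 5679 CPM against 1558 and 2666, although 5 or more Col3a1 UMIs had been asked of the fibroblast-type cells and none of the members. Dcn was at 1096 and 4026 CPM against 295 and 1794. The others were Pid1, Svep1 and Olfml3, Lpar1 (a receptor for lysophosphatidic acid), Adamts19 (a metalloproteinase of the ADAMTS family), Thbs2 (thrombospondin 2), Col14a1, Fibin, Shisa3, Sptssb (a subunit of serine palmitoyltransferase), Lrat (which stores retinol as esters) and Dab1. Dab1 was higher in epithelial cells, at 40.1 and 52.4 CPM, than in the members, at 26.2 and 36.3. Genes more than 1.5-fold higher in the members than in each of the 3 sets numbered 196 at E15.5 (1.98% of the 9878 compared) and 235 at E17.5 (2.66% of 8821), and 76 of them were shared. Genes lower than in each set numbered 38 (0.385%) and 40 (0.453%), and 12 were shared.

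**Figure D2:**
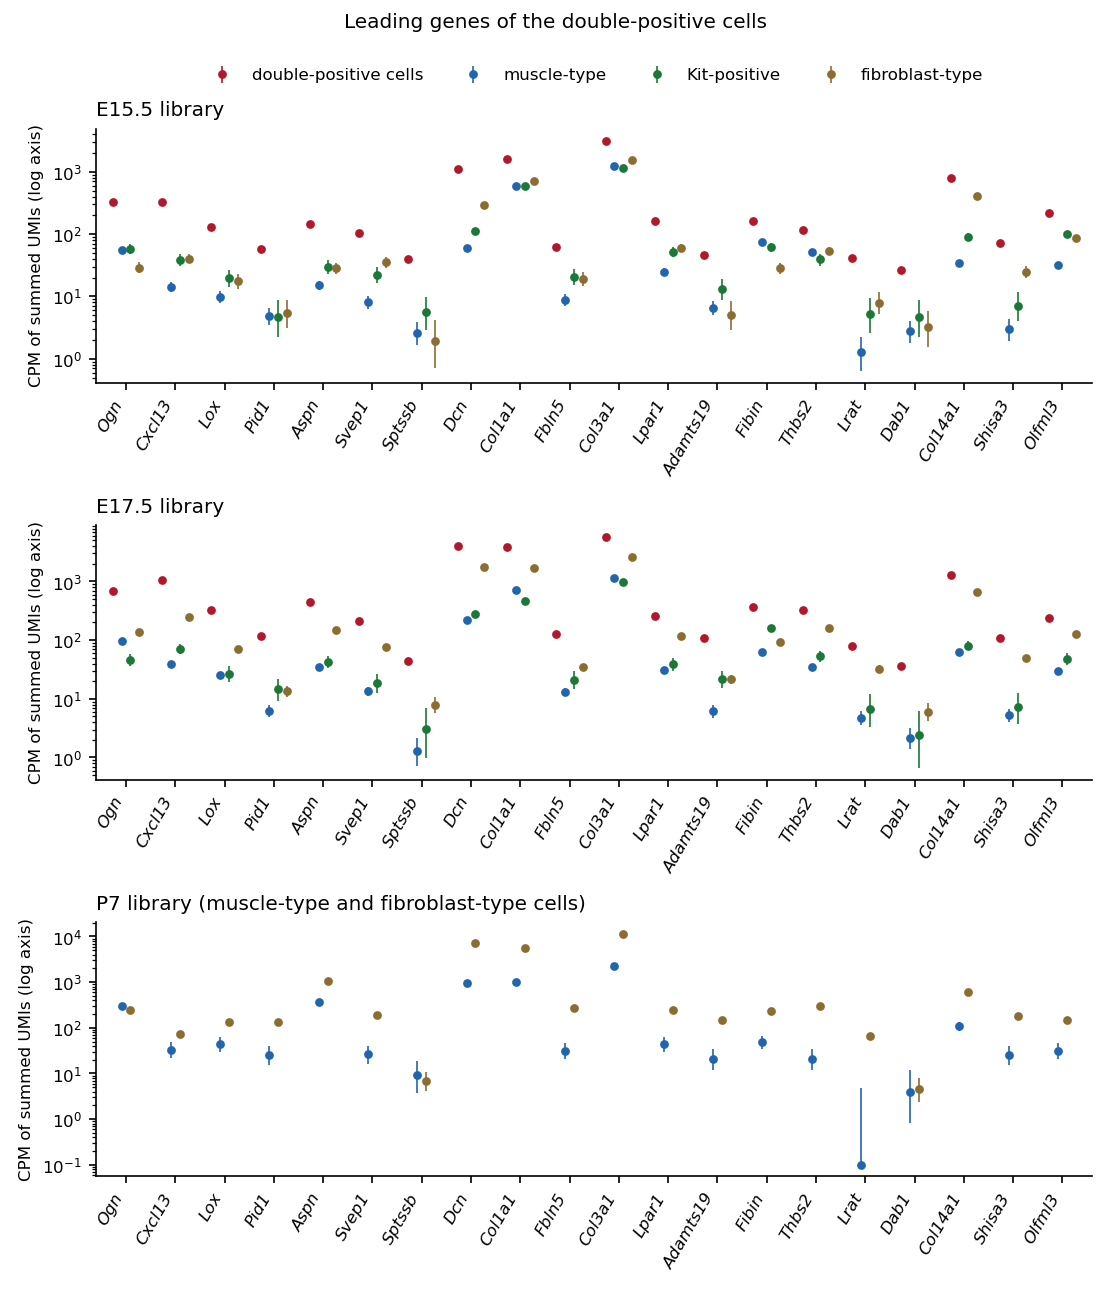
CPM (vertical axis, log scale) of the 20 leading genes of the double-positive cells, in those cells and 3 comparison sets at E15.5 and E17.5 and in muscle-type and fibroblast-type cells at P7; bars are 95% Poisson intervals, and a value under 0.1 CPM is drawn at 0.1. In both embryonic panels the double-positive cells are highest for every gene, which the choice of the genes fixes. At P7 17 of the 20 genes, Col3a1 of the fibroblast-type rule among them, are more than 1.5-fold higher in fibroblast-type than in muscle-type cells. The genes were chosen in part for lying above embryonic muscle-type cells.

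Against muscle-type cells, contractile genes were low. All 19 contractile genes other than Actg2, which the rules use, were more than 1.5-fold lower in the members in both libraries, where 9.31% and 10.5% of all genes were, with median log2 ratios of -3.37 and -4.08 against 0.25 and 0.38 over all genes compared. Myh11 was at 219 (212 to 226) CPM in the members and 3561 in muscle-type cells at E15.5, and at 174 (167 to 183) and 4644 at E17.5. Acta2 (smooth muscle alpha actin) was at 1396 and 1003 CPM in the members against 14746 and 18123, and Des (desmin) at 91.7 and 79.2 against 947 and 3111. The ratio was lowest for Pcp4, a calmodulin-binding protein, at 2.45 and 4.45 against 667 and 1284 CPM.

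Against fibroblast-type cells the same genes ran the other way. Of 17 measured contractile genes other than Actg2, 13 at E15.5 and 9 at E17.5 were more than 1.5-fold higher in the members, where 12.2% and 9.02% of all genes were. These are sums over all members and not a trait of each. Cnn1 and Myh11 were concentrated in group 2, described below, which held 363 of 1802 clustered members at E15.5 and 152 of 1420 at E17.5. Cnn1 (calponin) was at 75.1 against 4.15 CPM at E15.5 and 60.03 against 9.40 at E17.5. Acta2 was at 273 and 654 CPM in fibroblast-type cells. Pdlim3, a protein of actin filaments, went against the rest, at 10.8 and 15.47 CPM in the members and 41.2 and 82.3 in fibroblast-type cells. Matrix genes followed the fibroblast side: of the list of 33, 27 of 33 measured at E15.5 and 28 of 32 at E17.5 were higher in the members than in muscle-type cells, where 24.8% and 36.5% of all genes were. Against fibroblast-type cells, and without Col3a1, which their rule uses, 14 of 31 and 17 of 31 were higher (background 12.2% and 9.02%).

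Transcription factors of the muscle programme were split. Myocd (myocardin, the coactivator of serum response factor that switches on contractile genes) was at 31.6 and 20.9 CPM in the members, 205 and 134 in muscle-type cells and 5.11 and 10.8 in fibroblast-type cells. Foxf1, a Hedgehog-dependent factor of gut mesenchyme, was lower in the members than in all 3 sets, at 196 and 136 CPM against 300.3 and 263 in fibroblast-type, 361 and 231 in muscle-type and 339 and 477 in Kit-positive cells. Its relative Foxf2 was at 34.9 and 13.2 CPM against 135 and 59.9 in fibroblast-type cells. Zeb2, a zinc finger repressor of epithelial genes, was higher than in muscle-type cells, at 525 and 366 CPM against 59.5 and 62.7. Of 11 measured muscle regulators, 3 were higher and 5 lower than in muscle-type cells at E15.5, and 2 higher and 7 lower at E17.5. Of all genes, 24.8% and 36.5% were higher and 9.31% and 10.5% lower, so the count of higher regulators at E15.5 was near the background. The lowest ratio was that of Cav1 (caveolin 1, the coat protein of caveolae), at 10.8 and 12.4 CPM against 151 and 158.

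Of the factors that pattern the mesenchyme, 11 of 20 measured at E15.5 and 11 of 19 at E17.5 were higher in the members than in muscle-type cells, and 2 and 4 were lower (background 24.8% and 36.5% higher, 9.31% and 10.5% lower). The count of lower ones at E15.5 was near the background. Osr1, a zinc finger factor of embryonic connective tissue, was at 37.0 and 32.1 CPM in the members, 0.639 and 1.95 in fibroblast-type, 11.2 and 11.4 in muscle-type and 161 and 144 in Kit-positive cells. Tcf21, a factor of visceral fibroblast precursors, was at 180.4 and 159.7 CPM, against 85.0 and 104 in fibroblast-type and 44.4 and 20.04 in muscle-type cells. Hand2, a basic helix-loop-helix factor, was at 55.4 and 48.3 CPM, above the 7.99 and 9.93 of fibroblast-type cells and below the 147 and 86.7 of Kit-positive cells. Its relative Hand1 was low in the members, at 11.6 and 5.12 CPM, and high in muscle-type cells, at 146 and 171. Tbx2, a T-box repressor, was highest in fibroblast-type cells, at 46.6 and 32.8 CPM against 9.92 and 3.87 in the members.

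Genes of the pacemaker cells were found in part. Thbs4 (thrombospondin 4) was at 92.9 and 100.4 CPM in the members and 135 and 183 in Kit-positive cells, but at 3.19 and 5.85 in fibroblast-type cells. Etv1, a transcription factor of Cajal cells that the Kit-positive rule asked for, was at 66.9 and 41.7 CPM against 458 and 716. Ano1, their calcium-activated chloride channel, was at 4.12 and 3.77 CPM against 38.8 and 115. Of the Cajal list without Kit and Etv1, which the rules use, 4 of 7 measured genes at E15.5 and 5 of 6 at E17.5 were more than 1.5-fold lower in the members than in Kit-positive cells, where 8.77% and 11.6% of all genes were. Markers of the PDGFRA-positive interstitial cells, a separate gut cell that relays inhibitory nerve signals, were divided: Kcnn3, a potassium channel, was higher in the members, at 19.3 and 66.7 CPM, than in fibroblast-type cells, at 1.60 and 7.45. Pdgfra itself was lower, at 106 and 127 CPM against 296 and 191.

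Genes listed for subserosal and deep fibroblasts, such as Cxcl13, Ogn, Dpt and Aspn, were mostly higher in the members. This list was chosen with earlier results of these data known, and Cxcl13, Ogn, Aspn and Fibin are also leading genes of the members. Its counts are therefore a description and no independent sign of a subserosal identity. Against fibroblast-type cells, 8 of 8 measured genes at E15.5 and 10 of 10 at E17.5 were higher (background 12.2% and 9.02%). Median log2 ratios were 3.26 and 2.45 against 0.07 and 0.04 over all genes. Against muscle-type cells, 6 of 8 were higher and 2 lower at E15.5, and 8 of 11 higher and 2 lower at E17.5 (background 24.8% and 36.5% higher, 9.31% and 10.5% lower). Against Kit-positive cells, 5 of 9 were higher and 2 lower at E15.5, and 8 of 10 higher and 0 lower at E17.5 (background 12.7% and 13.3% higher, 8.77% and 11.6% lower). Gdf10, a growth factor of the BMP family, was at 13.2 and 41.8 CPM against 0.319 and 1.42 in fibroblast-type cells. Against Kit-positive cells its log2 ratio was -1.63 at E15.5 and -0.12 at E17.5, the lowest of the list. Mgp (matrix Gla protein, which blocks calcification) was at 122 and 452 CPM against 2.88 and 77.9 in fibroblast-type cells, but muscle-type cells had 345 and 538. Of the list of adventitial fibroblasts, the sheath cells of vessels and organs, too few genes were measured for a count: Cd34 was higher than in all 3 sets in both libraries, the highest of them being 2.56 CPM in fibroblast-type cells at E15.5 and 10.3 in Kit-positive cells at E17.5.

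Signalling genes differed by pathway. Among BMP genes, the ligand Bmp4 was at 225 and 227 CPM in the members, 434 and 312 in fibroblast-type cells and 14.0 and 21.8 in muscle-type cells. Of the secreted BMP antagonists, Grem1 (gremlin) was at 6.87 and 44.6 CPM in the members against 435 and 387 in muscle-type cells, and Nog (noggin) at 5.50 and 3.87 against 66.3 and 39.8. Among Hedgehog response genes, the receptor and target Ptch1 was at 230.5 and 157 CPM, less than the 687 and 485 of fibroblast-type cells, and the target Hhip at 12.2 and 5.80 against 72.2 and 39.0. Gas1, a coreceptor whose gene Hedgehog signals lower, was at 236 and 307 CPM in the members, 12.1 and 31.9 in fibroblast-type cells and 679.7 and 387 in muscle-type cells. Against fibroblast-type cells, 5 of 10 genes of the Hedgehog list were higher and 3 lower at E15.5, and 4 higher and 4 lower at E17.5 (background 12.2% and 9.02% higher, 5.67% and 6.65% lower). Among WNT genes, the antagonist Sfrp1 was at 493 and 466 CPM, the ligand Wnt5a at 99.6 and 83.5 and the agonist Rspo3 at 94.4 and 59.3. Wnt5a was higher than in fibroblast-type cells, at 47.9 and 31.6 CPM, and Rspo3 lower than in muscle-type cells, at 335 and 202.

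Guidance signals, pericyte markers and retinoid genes were also compared. Sema3d, a semaphorin, was at 34.9 and 65.2 CPM in the members, against at most 18.0 and 12.0 in the 3 comparison sets. Edn3 (endothelin 3), which enteric nerve precursors need, was higher in Kit-positive cells, at 153 and 226 CPM against 24.4 and 23.6 in the members. Of 9 pericyte markers, Rgs5 was higher than in fibroblast-type cells, at 144 and 256 CPM against 35.8 and 133, but Ndufa4l2 was lower, at 23.9 and 45.8 against 60.1 and 245, and the list as a whole had 3 genes higher and 2 lower of 8 at E15.5 and 2 and 5 at E17.5 (background 12.2% and 9.02% higher, 5.67% and 6.65% lower). In the retinoid list, Aldh1a1, which makes retinoic acid, was lower than in muscle-type cells, at 30.3 and 22.0 CPM against 585 and 272, and Dhrs3, a retinaldehyde reductase, was higher, at 33.6 and 58.6 against 8.26 and 7.31.

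Dlk1 stands in an imprinted cluster with the noncoding RNA genes Meg3 and Rian, which are expressed from the maternal allele. Meg3 was at 1722 and 2301 CPM in the members against 1012 and 1364 in fibroblast-type and 777 and 1204 in muscle-type cells. Cdkn1c, an imprinted inhibitor of the cell cycle, was at 1416 and 1876 CPM against 656 and 554 in fibroblast-type cells. Plagl1, an imprinted zinc finger gene, was at 331 and 439 CPM against 73.8 and 112. Dlk1 itself was set by the rules. Of the 17 other imprinted growth genes measured, 9 at E15.5 and 8 at E17.5 were more than 1.5-fold higher in the members than in fibroblast-type cells and 0 were lower (background 12.2% and 9.02% higher, 5.67% and 6.65% lower). Against Kit-positive cells, 2 were higher and 5 lower at E15.5 (background 12.7% and 8.77%), and 4 higher and 2 lower at E17.5 (background 13.3% and 11.6%).

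The members were not uniform. Clustering the members of each library by themselves, with cells marked as doublets and cells of over 1% haemoglobin left out and with cell cycle genes not used, gave 5 clusters among 1802 cells at E15.5 and 6 among 1420 cells at E17.5. Each E17.5 cluster was joined to the E15.5 cluster whose profile it resembled most, at correlations of 0.50 to 0.83 over 3925 genes, which gave 5 groups, numbered 0 to 4. The genes that tell them apart were found on the same cells and are a description. Group 0 (722 cells at E15.5, 610 at E17.5) was led by Cxcl13, with Colec10, Col14a1 and Adamdec1, a secreted protease of gut stroma, among its first genes. Its Ogn was at 646 and 1347 CPM, and its Dcn, at 1867 and 6660.1, was the highest of the groups in both libraries. Group 1 (375 and 239 cells) was led by Adamdec1 as well and had more Ccl11 (eotaxin, which draws eosinophils), at 333 and 332 CPM against 24.1 and 40.6 in group 0.

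Groups 0 and 1 were not cleanly separate. The cells of group 1 were deeper, with medians of 11259 and 7782 UMIs against 7962.5 and 5609, and Mki67 or Top2a, 2 genes of dividing cells, were found in 79.2% and 57.7% of them against 48.1% and 13.4% in group 0. The E17.5 cluster of group 1 also correlated at 0.63 with the E15.5 cluster of group 0, against 0.65 with its own. Values for the pooled groups are therefore given where stages are compared. Together they made up 1097 of the E15.5 cells clustered and 849 of those of E17.5.

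Group 2 (363 and 152 cells) carried the contractile genes. Myh11 was at 1125 (1084 to 1167) CPM there at E15.5 and 1398 (1318 to 1480.3) at E17.5, and no other group exceeded 112 or 69.8. Cnn1 was at 433 and 536 CPM against 1786 and 2249 in muscle-type cells, Myocd at 167 and 165, and Acta2 at 5936 and 5694. For Myh11 and Cnn1 these levels stood between those of the other groups and those of the muscle-type cells. Myocd in group 2 lay near the 205 and 134 CPM of muscle-type cells. Id2, an inhibitor of basic helix-loop-helix factors, was at 538 and 484 CPM in group 2 against 339 and 279.7 in muscle-type cells. Dcn was at 143 and 326 CPM and Cxcl13 at 13.6 and 3.61, the lowest levels of any group in both libraries. Npnt (nephronectin, a matrix protein that binds integrins) was at 156 and 139.8 CPM.

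Group 3 (270 and 322 cells) was led at E15.5 by Pid1, Igfbp5, Rgs5 and Thbs4. Rgs5, a regulator of G protein signalling known from pericytes, was at 378 and 607 CPM, the highest of the groups. Kcnn3 was at 81.3 and 173 CPM, Pdgfra at 178 and 211 and Gdf10 at 67.7 and 159, each the highest of the groups in both libraries. Smoc2, a matrix-associated calcium-binding protein, was shared between groups 2 and 3, at 405 and 402 CPM in group 2 and 249.8 and 487 in group 3. Group 4, the smallest (72 and 97 cells), had the highest Dlk1, at 2019 (1908 to 2134) and 2141 (2035 to 2251) CPM against 479 to 1244 and 687 to 1269 in the others. Wnt4 was at 297 and 324 CPM there, Slit2 (an axon and cell guidance ligand) at 277 and 289, and S100a6 at 570.2 and 1065. Wt1, a mesothelial marker, had 12 of its 17 member UMIs at E15.5 and 22 of 24 at E17.5 in this group, at 19.6 and 30.7 CPM, while Upk3b had 0 UMIs there in either library, with upper limits of 6.01 and 5.15 CPM.

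**Figure D3:**
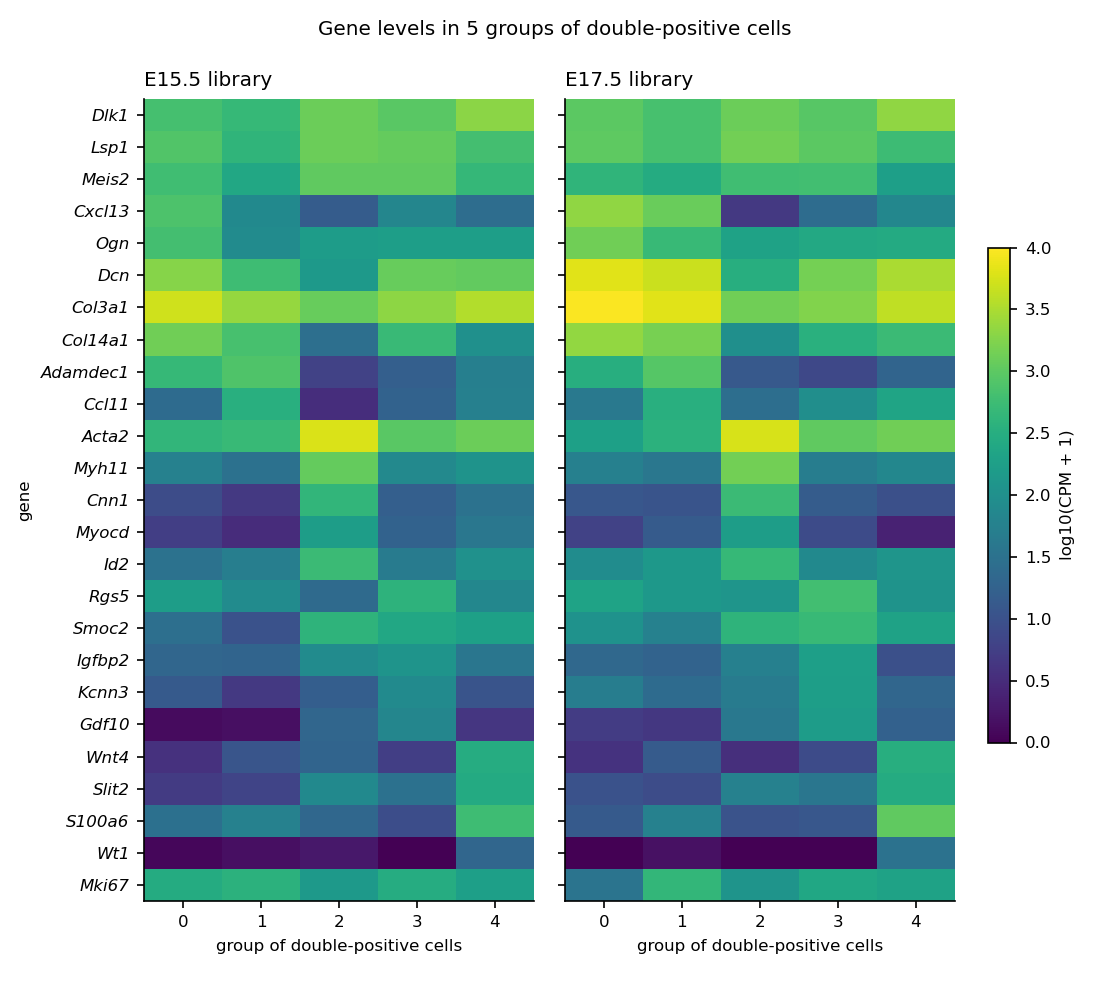
Levels of 25 genes (rows) in 5 groups of double-positive cells (columns), as log10 of CPM + 1, at E15.5 on the left and E17.5 on the right; yellow is high. Contractile genes are high in group 2, Cxcl13, Ogn and Dcn in group 0, Rgs5, Kcnn3 and Gdf10 in group 3, and Wnt4, Slit2, S100a6 and Wt1 in group 4, in both libraries.

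Meis2 differed within the members as well. It was highest in groups 2 and 3, at 1066 and 1038 CPM at E15.5 and 592 and 609 at E17.5. It was lowest in group 1 at E15.5, at 249.6 CPM, and in group 4 at E17.5, at 183. Ordered instead by the share of UMIs in contractile genes other than Actg2, the members of a library formed a range. At E15.5 this share ran from 0.124% to 6.50% of a cell's UMIs, and at E17.5 from 0.0924% to 6.79%. The 621 highest cells at E15.5 began at 0.626% and the 511 highest at E17.5 at 0.623%. In the 621 cells with the lowest share at E15.5, the 621 in the middle and the 621 with the highest share, Dcn stood at 1217, 1281 and 741 CPM and Bmp4 at 269.9, 277 and 112. Dlk1 stood at 680.1, 694 and 1009 CPM and Meis2 at 481, 561 and 849.6. The 512, 512 and 511 cells of E17.5 gave 5053, 4581 and 2349.7 CPM for Dcn and 372, 423 and 446 for Meis2. In both libraries Dcn was lowest and Meis2 highest where contractile genes were highest.

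Fibroblast and contractile transcripts met in single cells. Among members thinned to 5000 UMIs at E15.5, Myh11 or Cnn1 was found in 233 of 825 cells with 2 or more UMIs of Ogn and Cxcl13 together (28.2%, 25.2 to 31.4%) and in 195 of 589 cells with none (33.1%, 29.3 to 37.1%). At E17.5 it was found in 192 of 759 (25.3%, 22.2 to 28.5%) and in 83 of 214 (38.8%, 32.2 to 45.7%). Thinned to 7000 UMIs, the order at E15.5 was the opposite, 36.6% (33.0 to 40.4%) against 31.7% (27.0 to 36.7%), so none is read from that library. At E17.5 the shares at 7000 UMIs were 30.6% and 35.4%, with overlapping intervals. Free RNA and doublets, of which 31 and 54 members were marked, are in these shares, and their part was not tested. A Myh11 UMI was found in 4.59% and 5.60% of epithelial cells thinned to 5000 UMIs. Unthinned, it was found in 12.0% and 11.6% of epithelial cells.

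Between the stages, the members' matrix genes were higher at E17.5 and their cell cycle genes lower. Of 10737 genes compared, 974 (9.07%) were more than 1.5-fold higher at E17.5 and 1240 (11.5%) lower, with a median log2 ratio of -0.13 over all of them. With counts scaled by the median ratio of genes, which removes that shift, 1248 were higher and 723 lower. Dpt (dermatopontin, a small protein of collagen matrix) was at 13.9 CPM at E15.5 and 298 at E17.5, a log2 ratio of 4.42 (4.22 to 4.62). After thinning it was found in 5.68% of the members at E15.5 and 53.1% at E17.5, when fibroblast-type cells had 4.87%. Of the list of subserosal and deep fibroblast genes, 9 of 10 measured were higher at E17.5 and 1 lower, with a median of 1.67. Cxcl13 had a log2 ratio of 1.69 (1.64 to 1.73), Ogn of 1.09 (1.04 to 1.14), Mgp of 1.88 (1.81 to 1.96) and Gdf10 of 1.66 (1.42 to 1.90). Rspo3 was the lower one, at -0.67 (-0.81 to -0.54). Meis2 was lower at E17.5, with a ratio of -0.59 (-0.64 to -0.54).

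Of 33 matrix genes, 19 were higher and 1 lower, with a median of 0.70, where 9.07% of all genes were higher and 11.5% lower. The largest ratio was that of Tnc (tenascin C), at 6.04 and 45.0 CPM. Dcn had a ratio of 1.88, Lox of 1.30, Col1a1 of 1.24, Col3a1 of 0.84 and Eln (elastin) of 1.35. Npnt was the lower one, at -0.82. Of the 11 pan-fibroblast genes, which overlap with the matrix list, 8 were higher and 0 lower against the same background. Levels in fibroblast-type cells were higher at E17.5 too: Dcn was at 295 and 1794 CPM there and Col3a1 at 1558 and 2666. Whether the 2 sets differed in this was not tested.

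Contractile genes of the members were near the median of all genes. Of 19 measured, 0 were more than 1.5-fold higher and 2 lower, with a median of -0.17 (background 9.07% higher and 11.5% lower). The count of lower ones was near the background. Myh11 had a log2 ratio of -0.33 (-0.41 to -0.25) and Acta2 of -0.48 (-0.51 to -0.44). These are sums over all members, and group 2, which carried the contractile genes, was 20.1% of clustered members at E15.5 and 10.7% at E17.5. Taken by group, the contractile median was 0.20 in group 2 and 0.26 in groups 0 and 1 pooled. It was -0.17 in group 3 and 0.12 in group 4. The part of the changed share in the sums was not tested. Muscle-type cells over the same days had more Des, at 947 and 3111 CPM, while the members had 91.7 and 79.2. Among 12 measured muscle regulators, 6 were lower and 2 higher at E17.5 against the same background. The lowest was Hmga2, a chromatin protein of embryonic cells that let-7 microRNAs restrain, at 124 and 22.0 CPM, a log2 ratio of -2.49 (-2.69 to -2.29). It was lower in other cells as well, at 205 and 53.5 CPM in muscle-type cells and 148 and 56.0 in fibroblast-type cells. Srf, the serum response factor, had 22.2 and 9.96 CPM in the members.

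Genes of dividing cells were lower at E17.5 for 27 of 30, with a median of -0.83, where 11.5% of all genes were lower and 9.07% higher. Mki67 was at 284 (276 to 293) and 184 (176 to 193) CPM, and Top2a at 461 and 249. HOX genes, which mark position along the body axis, were lower for 6 of 17 and higher for 0 against the same background. Hoxa4 had the lowest ratio of the list, at -1.39 (-1.68 to -1.11), and Hoxc8 was at 69.6 and 27.7 CPM. Among the patterning factors, Prrx1, a homeobox gene of limb and connective tissue mesenchyme, had the highest ratio from a low base, at 2.33 and 7.44 CPM, and Nr2f1 the lowest, at 23.5 and 8.80.

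**Figure D4:**
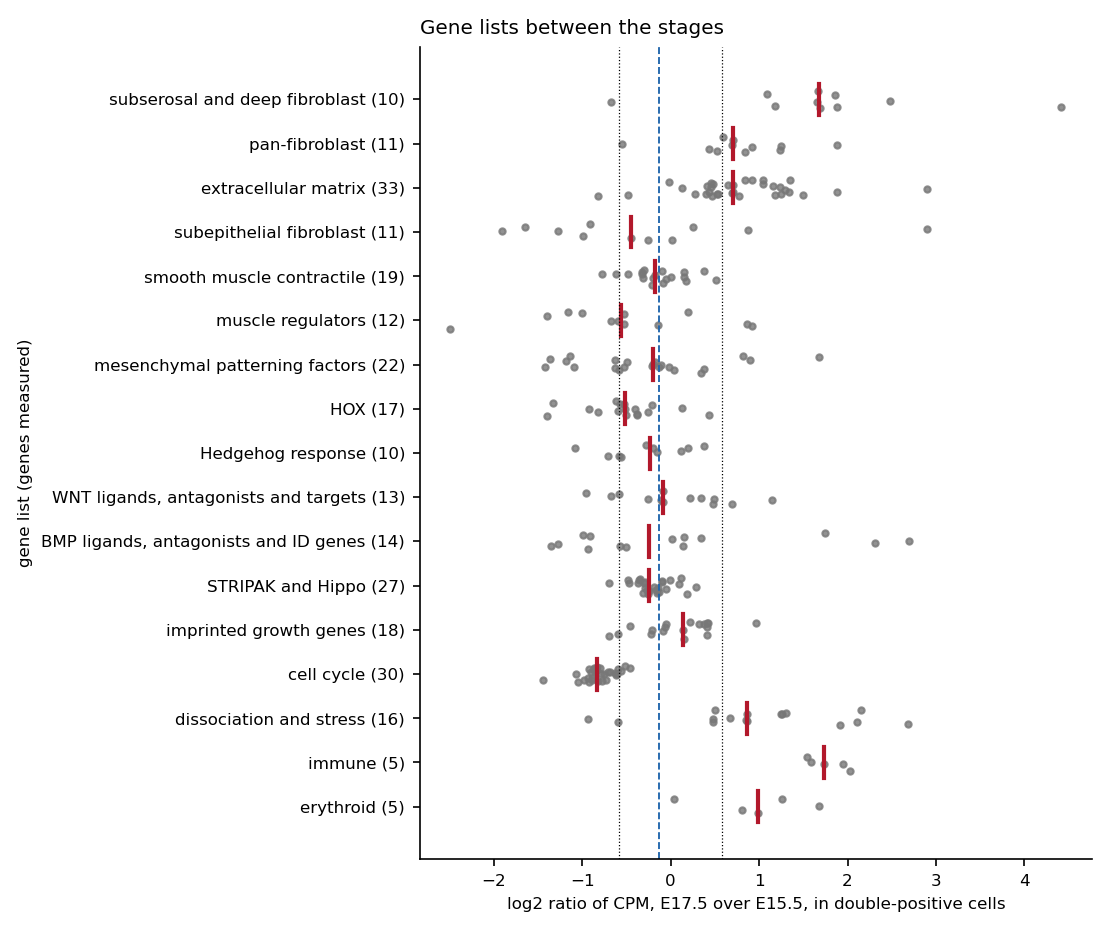
Log2 ratio of CPM at E17.5 over E15.5 in the double-positive cells (horizontal axis) for the measured genes of 17 lists (rows, number of genes in brackets); grey points are genes with random vertical offsets, red bars list medians, dotted lines the 1.5-fold marks and the blue dashed line the median of all genes, -0.13. Genes for subserosal fibroblasts and matrix lie mostly to the right, cell cycle genes to the left, and contractile genes about the blue line.

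Ligands and receptors differed gene by gene. Grem1 had a log2 ratio of 2.70 (2.40 to 3.00), at 6.87 and 44.6 CPM, and the BMP antagonist Fst (follistatin) of -1.36 (-1.70 to -1.03). Vegfd, a ligand of lymphatic vessel growth, was at 3.35 and 47.8 CPM. Nppc, which encodes C-type natriuretic peptide, was at 1.55 and 18.1. Sema3c, a guidance ligand, was at 8.31 and 23.1 CPM and Sema3a, which repels growing nerve fibres, at 19.1 and 9.57. In the Hedgehog list 0 of 10 genes were higher and 2 lower, and in the Notch list 0 of 9 higher and 1 lower, where 9.07% of all genes were higher and 11.5% lower. The 2 guidance genes had the highest and the lowest ratio of their list of 16, in which 5 were higher and 1 lower. In the WNT list 2 of 13 were higher and 2 lower, Dkk2, an antagonist, being at 25.6 and 56.7 CPM. The Notch and WNT counts were near the background.

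Other genes with the largest ratios were an assorted group. Upward they were Cxcl2, Cxcl10 and Ccl7 (chemokines), Tnfaip2 (induced by tumour necrosis factor), Dpep1 (a dipeptidase), Cdo1 (cysteine dioxygenase) and Ildr2. Cdo1 was at 6.81 and 107 CPM and Dpep1 at 2.21 and 35.3. Cck (cholecystokinin, a hormone of epithelial endocrine cells) reached 123 CPM at E17.5, but 1242 of its 1273 UMIs lay in 1 cell. Gzma, a protease of cytotoxic lymphocytes, reached 11.4 CPM, with 100 of its 118 UMIs in 1 cell. Downward they were Msmo1 (an enzyme of cholesterol synthesis), at 118 and 23.6 CPM, Cobl (an actin nucleator), Hs3st3a1 (a heparan sulphate sulphotransferase), Hoxc9, St8sia1 (a ganglioside sialyltransferase), Rassf9, Fam162b, Fndc3c1, Aunip and the unnamed transcripts 2610318N02Rik and AA465934. AA465934 was at 55.9 and 0.773 CPM in the members and at 33.7 and 1.22 in epithelial cells, and so was lower in other cells too.

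Stress and blood genes moved with the stage. The summed level of 16 dissociation and stress genes was 7860.3 CPM in the members at E15.5 and 14094 at E17.5. Of these genes, 11 were more than 1.5-fold higher and 2 lower, where 9.07% of all genes were higher and 11.5% lower. Fos was at 1472 and 2674 CPM and Ier3 at 38.8 and 249.9. Summed haemoglobin and other erythroid genes were at 7547 and 17158 CPM, and 7 immune genes at 29.6 and 93.5 CPM. Of the immune genes, 5 of 5 measured were higher against the same background. The chemokines above are genes that stressed or inflamed fibroblasts can express, and the part of stress, blood RNA or immune RNA in any stage difference was not tested. Without the 30 and 62 members of over 1% haemoglobin, Hbb-bs and Hbb-bt turned to log2 ratios of -0.28 and -0.52, and the median of the subserosal list stayed within 1.55 to 1.80 in this and 8 other settings.

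Within the groups, counts of matrix genes that were higher at E17.5 ran from 6 to 24. No test of the differences between groups exists. In groups 0 and 1 pooled, 23 of 31 measured matrix genes were higher at E17.5 and 0 lower, where 9.65% of all genes were higher. Dcn was at 1324 (1302 to 1346) and 5990.0 (5926 to 6055) CPM and Col3a1 at 3903 and 8365. In group 2, 12 of 28 were higher and 1 lower (background 6.02%), and Dcn was at 143 (129 to 159) and 326 (289 to 368) CPM. In group 3, 6 of 30 were higher and 2 lower (background 8.36%), with Dcn at 1166 (1121 to 1212) and 1469 (1417 to 1522) CPM and Col3a1 at 2071 and 1769. In group 4, 14 of 28 were higher and 0 lower (background 10.8%), with Dcn at 1089.9 (1009 to 1176) and 3075 (2948 to 3206) CPM. Taken apart, group 0 had 21 of 31 higher and group 1 24 of 31 (backgrounds 8.18% and 10.7%). In group 3 most of the matrix genes measured were not past 1.5-fold.

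Dpt was higher at E17.5 in all 5 groups, from 16.0 to 439 CPM in the pooled groups 0 and 1, 21.8 to 182 in group 3 and 6.52 to 60.02 in group 4, with 0.399 and 6.02 in group 2. Hmga2 was lower at E17.5 in all 5 groups, with 83.5 to 166 CPM at E15.5 and 16.0 to 29.1 at E17.5. Vegfd was at 4.33 and 81.3 CPM in groups 0 and 1 and at most 14.0 in the others at E17.5. Cdo1 was at 26.8 and 469 CPM in group 3 and stood at 2.71 in groups 0 and 1 at E17.5. Both Gdf10 and Kcnn3 were higher at E17.5 in group 3, by log2 ratios of 1.23 and 1.09. The contractile list of group 2 had 2 genes higher and 0 lower of 17 (background 6.02% higher and 8.61% lower). Its median was 0.20 against -0.07 for all genes of that group.

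Cell cycle genes were lower at E17.5 for 30 of 30 in the pooled groups 0 and 1, where 16.5% of all genes were lower. Taken apart, group 0 had 30 of 30 lower, with a median log2 ratio of -2.37, and group 1 had 7 of 30, with a median of -0.11 (backgrounds 18.4% and 15%). Counts in the other groups were 7 of 24 in group 2, 10 of 28 in group 3 and 2 of 16 in group 4 (backgrounds 8.61%, 12.1% and 6.9%). Mki67 was at 323 and 182 CPM in the pooled groups, 147 and 116 in group 2 and 301 and 236 in group 3. Of 16 stress genes, 11 were higher and 2 lower in the pooled groups, 13 and 0 in group 2, 10 and 1 in group 3 and 16 and 0 in group 4. Of all genes, 9.65%, 6.02%, 8.36% and 10.8% were higher in these groups. At E17.5 group 0 joined 2 clusters that differed in the chemokine Ccl2, at 2185 CPM in 1 and 51.2 in the other. Dcn, at 6714 and 6515 CPM, and Dpt, at 538 and 449.7, differed little between these clusters. The part of stress in the levels of Dcn and Dpt was not tested.

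**Figure D5:**
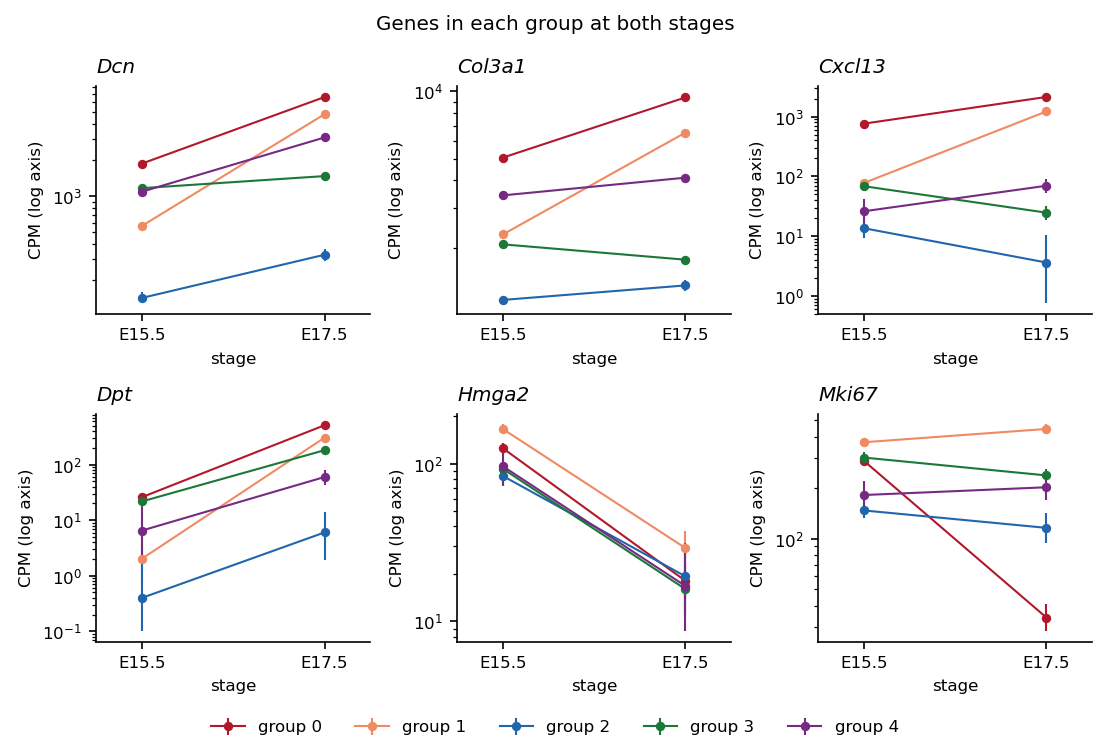
CPM (vertical axes, log scale) of 6 genes at E15.5 and E17.5 in the 5 groups of double-positive cells; points are summed levels, bars 95% Poisson intervals, and lines join matched groups without meaning descent. Dpt is higher and Hmga2 lower at E17.5 in all 5 groups, Dcn is lowest in group 2 at both stages, and Mki67 is lower at E17.5 in group 0 and higher in group 1, the groups that differ in depth and cycling.

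Slmap and Stk24, the genes the series centres on, were at 40.2 (37.2 to 43.4) and 42.8 (38.9 to 47.0) CPM (Slmap, a subunit of the STRIPAK phosphatase complex) and 40.7 (37.7 to 43.9) and 46.1 (42.1 to 50.4) CPM (Stk24, encoding the kinase MST3) in the members. Slmap was higher in muscle-type cells, at 198 and 288 CPM, and near the members' level in fibroblast-type cells, at 30.7 and 31.04. Among the groups it was highest in group 2, at 100.3 (88.2 to 113) and 143 (119 to 172) CPM, where contractile genes were high, against 26.6 to 32.3 and 30.2 to 46.5 in the others. Stk24 differed less over the sets than Slmap, from 35.1 to 46.0 CPM at E15.5 and 30.1 to 55.8 at E17.5. Of 27 measured genes of the STRIPAK complex and the Hippo pathway, which it regulates, 0 were higher and 1 lower at E17.5 in the members, where 9.07% of all genes were higher and 11.5% lower.

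After birth, most of the members' leading genes were higher in fibroblast-type than in muscle-type cells, the 2 sets compared. The P7 library held 566 cells that met the fibroblast-type rule and 130 that met the muscle-type rule. Of the 20 leading genes, 17 were more than 1.5-fold higher in the former and 0 in the latter, where 29.6% and 12.6% of 4942 genes were. The 17 include Col3a1, which the fibroblast-type rule uses, so the rule favoured its direction. All 20 had been chosen in part for lying above embryonic muscle-type cells. At E17.5 fibroblast-type cells already had more Dcn than muscle-type cells, at 1794 against 217 CPM, and more Thbs2, at 159 against 35.4. The P7 count therefore does not show a difference that arose after birth, and no fate is read from it. Dcn was at 7024 (6923 to 7126) CPM in P7 fibroblast-type and 952 (884 to 1025) in muscle-type cells, and Thbs2 at 296 and 21.2. Ogn, the first of the list, differed by less than 1.5-fold, at 248 (229 to 268) and 305 (267 to 347) CPM, as did Sptssb and Dab1, which were under 10 CPM in both. Cxcl13 was at 73.7 and 33.2 CPM. Epithelial cells of P7, which were not part of this count, held Dab1 at 76.5 CPM and Lrat at 45.4. Fibroblast-type cells held these at 4.58 and 67.2 CPM. The P7 fibroblast-type cells also held Acta2 at 3405 CPM and Myh11 at 540.3 although they had been chosen for low Actg2. Dlk1 was at 40.1 and 55.7 CPM in these P7 sets, of which the first had been chosen with fewer than 3 Dlk1 UMIs a cell. Which P7 cells descend from the members was not measured.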

How the data were processed

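The deposited files hold UMI counts per gene and cell for 1 library at each of 3 stages. Counts were made by the authors with Cell Ranger 7.2.0 on mm10 (GRCm38), per the submitters' processing notes, and every cell in the matrices was kept. Cells were given to sets by the rules stated in the report, and UMIs were summed per set and divided by the set's total to give CPM. Genes with 100 or more UMIs over both sets were compared, a gene counted as higher or lower past 1.5-fold by its value, and 3 UMIs stood in for any smaller count. With 1 library per stage no test was possible. The ratios and their intervals were tested on Poisson counts simulated from the summed E15.5 profile. Of genes changed 2-fold between simulated E15.5 and E17.5 members, 97.5% passed 1.5-fold among 10527 genes. Cells were not simulated, so neither the summing over cells nor the spread between them was tested.

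Leading genes were ranked by the smallest of their log2 ratios, with 20 CPM added, and the genes named for stage were the 12 highest and 12 lowest ratios, leaving out genes over 5 times higher in another set, haemoglobin, Gm and mitochondrial genes. From each list its defining genes and extremes were named; other genes were chosen after their values were seen. Scrublet at an expected rate of 6% marked doublets, which were removed only for clustering and in an alternative. Members were clustered with scanpy 1.11.5 and leidenalg 0.10.2 (resolution 0.5, 2000 variable genes, 30 components, 15 neighbours). The members, lists and comparison rules were chosen with earlier results of these data known, and the clustering and the removal of cells rich in haemoglobin were added after the data were seen. Python 3.11.15, numpy 2.4.6, pandas 2.3.3 and scipy 1.17.1 were used.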

Additional observations from a re-analysis of the deposited data

How the results depend on the processing

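No paired analysis was possible because each stage is 1 library and no replicate exists. Under 11 alternatives, 10 of them planned, 63 of 80 recomputed counts of cells or genes stayed within 1.5 times their value. With 5 or more Dlk1 and 3 or more Lsp1 UMIs, members numbered 1101 (E15.5) and 816 (E17.5), and 25 genes were lower than in each comparison set at E17.5. Without cells holding a UMI of Mki67 or Top2a, members at E15.5 numbered 911, and 22 and 25 genes were lower than in each set at E15.5 and E17.5. Scaling by the median ratio of genes left 723 genes lower at E17.5. With 300 or more UMIs asked of a gene, 568 were higher at E17.5, 112 and 144 were higher and 15 and 10 lower than in each set at E15.5 and E17.5, fewer genes being compared. With 10 or more, 2257 were higher and 2025 lower at E17.5, 406 were higher than in each set at E17.5, and 195 and 151 were lower at E15.5 and E17.5. Without members of over 1% haemoglobin the erythroid list median was -0.40, Hbb-bt -0.52 and Hbb-bs -0.28, each reversed by the removal of those cells. Over the 9 alternatives run for lists (not the limits on UMIs per gene) the median log2 stage ratio ran from 1.55 to 1.80 for subserosal genes, 0.67 to 0.85 for matrix genes, -0.86 to -0.66 for cell cycle genes and 0.85 to 0.99 for stress genes. At resolutions 0.3 and 0.8, clustering gave 5 and 8 clusters at E15.5 and 5 and 10 at E17.5. At 0.3, 70.7% of group 0 at E17.5 and 80.6% of group 4 at E15.5 lay in a cluster with a majority of their own group. The other shares ran from 86.6% to 100%.

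Animals, dissection, sort, depth and stage cannot be told apart with 1 library each. Levels of a few CPM rest on few UMIs. The thresholds on Dlk1 and Lsp1 favour deep cells.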
